A study of Mus musculus with 12 samples.

Results

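The genes described here belong to the NRF2 and glutathione antioxidant system of the mouse: Nfe2l2, Nqo1, Hmox1, Gclc, Gclm, Txnrd1, Srxn1, Gsr, G6pdx and Prdx1. They were taken by gene symbol from the deposited expression table, in which each symbol had 1 entry, so they are 10 of 55415 entries. A gene was tested if 3 or more of the 12 libraries had it at 1 FPKM or above; all 10 met this, and 13668 entries did in all. FPKM is a gene's count divided by its exonic length in kilobases and by the library total in mega counts.

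The study sequenced RNA of CT26 tumour tissue in 4 groups of 3 libraries. CT26 is an established mouse colon carcinoma line, and every group, the controls included, is tumour tissue grown from it in mice, so each library is bulk tissue that also holds host cells. The groups were untreated control mice, mice given Complex 1, mice given radiation, and mice given both, called the combination below; the series title describes an X-ray activated platinum complex and an abscopal effect, that is, an effect away from the irradiated site. Dose, time of sampling, mouse strain, age, and whether the sampled tumour lay in the beam are not stated in the labels. The labels also do not say whether the libraries of a group are from different animals; the spread behind each p-value may then be partly technical.

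NRF2, the protein encoded by Nfe2l2, is a transcription factor that KEAP1 normally hands over for degradation and that accumulates when electrophiles or oxidants modify KEAP1. Together with small MAF proteins it binds antioxidant response elements, which the repressor BACH1 can also occupy at genes such as Hmox1. Its known targets make glutathione, reduce disulfides and peroxides, supply NADPH, and break down heme and quinones. Ionising radiation produces reactive oxygen species and platinum compounds react with thiols, which is why these genes are often examined after such treatments.

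Promoter sequences were looked up to show which of the 10 genes carry the letters of an antioxidant response element close to their start. The motif searched was TGACNNNGC on both strands, where N is any base, in the RefSeq promoter table of build GRCm38.p6, which spans 250 bases before to 50 bases after a start. The table held 9 promoters of 7 of the genes. The motif was present in 6 of the 9 promoters (66.7%), and in 12.4% of all 32851 promoters of the same length. Counted by gene, it was present in 6 of 7 (85.7%) and in 14% of 27025 genes. The 10 genes were listed because they belong to the NRF2 system, so these shares are not a test of an excess. The 6 matches, 1 per gene, are shown with 10 bases on each side, read 5′ to 3′ on the strand on which the motif reads as written; capitals mark the motif.
Nfe2l2: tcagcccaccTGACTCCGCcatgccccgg
Gclm: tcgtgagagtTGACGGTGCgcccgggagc
Txnrd1: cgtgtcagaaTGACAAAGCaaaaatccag
Srxn1: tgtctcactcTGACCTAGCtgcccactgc
G6pdx: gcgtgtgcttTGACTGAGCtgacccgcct
Prdx1: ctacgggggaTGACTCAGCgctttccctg
These stretches lie, in GRCm38.p6, at chr2:75704885-75704913 (minus strand) for Nfe2l2, chr3:122245413-122245441 (minus) for Gclm, chr10:82859104-82859132 (minus) for Txnrd1, chr2:152105542-152105570 (minus) for Srxn1, chrX:74428919-74428947 (plus) for G6pdx and chr4:116685456-116685484 (minus) for Prdx1. Counted from the annotated start, the matches began at position -240 in Nfe2l2, -134 in Gclm, -133 in Prdx1, -92 in Txnrd1, -57 in G6pdx and 29 in Srxn1. The Txnrd1 match belongs to 1 of 3 annotated starts of that gene. For Nfe2l2 the bases after the start in the table were found in no GENCODE M21 transcript, unlike those of the other 8 promoters, so its match may not lie near a start in common use. The Nqo1 promoter in the table held no match, which says only that these letters are not in that window. A match is a description of the sequence, and binding was not measured. Hmox1, Gclc and Gsr are not among the promoters printed.

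Libraries held 15.6 to 19.1 mega counts, and no 2 libraries of a group agreed within sampling noise. Among the epithelial markers of the tumour line, Krt20 was high at 66.6 to 148 FPKM and Krt18 stood at 2.81 to 7.72 FPKM, while Epcam did not exceed 0.18 FPKM and Cldn4 was below 0.1 FPKM in every library. Macrophage markers summed to 514 to 977 FPKM, so host myeloid RNA was present throughout. Control replicate 2 stood apart in Xist, the RNA of the inactive X chromosome, with 0.02 FPKM against 9.20 to 14.2 FPKM in the other 11 libraries, which bears on G6pdx, an X-linked gene.

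In the tumours given the combination, 4 of the 10 genes differed from control: Hmox1 and G6pdx rose, and Gclc and Txnrd1 fell (edgeR's quasi-likelihood test, Benjamini-Hochberg adjusted p under the threshold of 0.05 over all tested genes). In that comparison 21.9% of all tested genes passed, 11.9% higher (1620 genes) and 10% lower (1372), or 1947 and 888 genes where libraries were scaled by their totals alone. The median log2 fold change was -0.09 over the 10 genes and -0.01 over all tested genes. The 4 genes that passed also showed no overlap between the FPKM of the 3 combination and the 3 control libraries. Such separation was seen upward in 23.9% and downward in 14.1% of tested genes. The calls among the 10 genes went in both directions, as they did over all tested genes, and this is not read as particular to the set. The increase was strong for the heme enzyme Hmox1 and small for the NADPH enzyme G6pdx. Decreases were seen for Gclc, the catalytic subunit of the glutathione synthesis enzyme glutamate-cysteine ligase, and for Txnrd1, a thioredoxin reductase. Gclm, the other subunit of the ligase, did not pass.

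**Figure D1:**
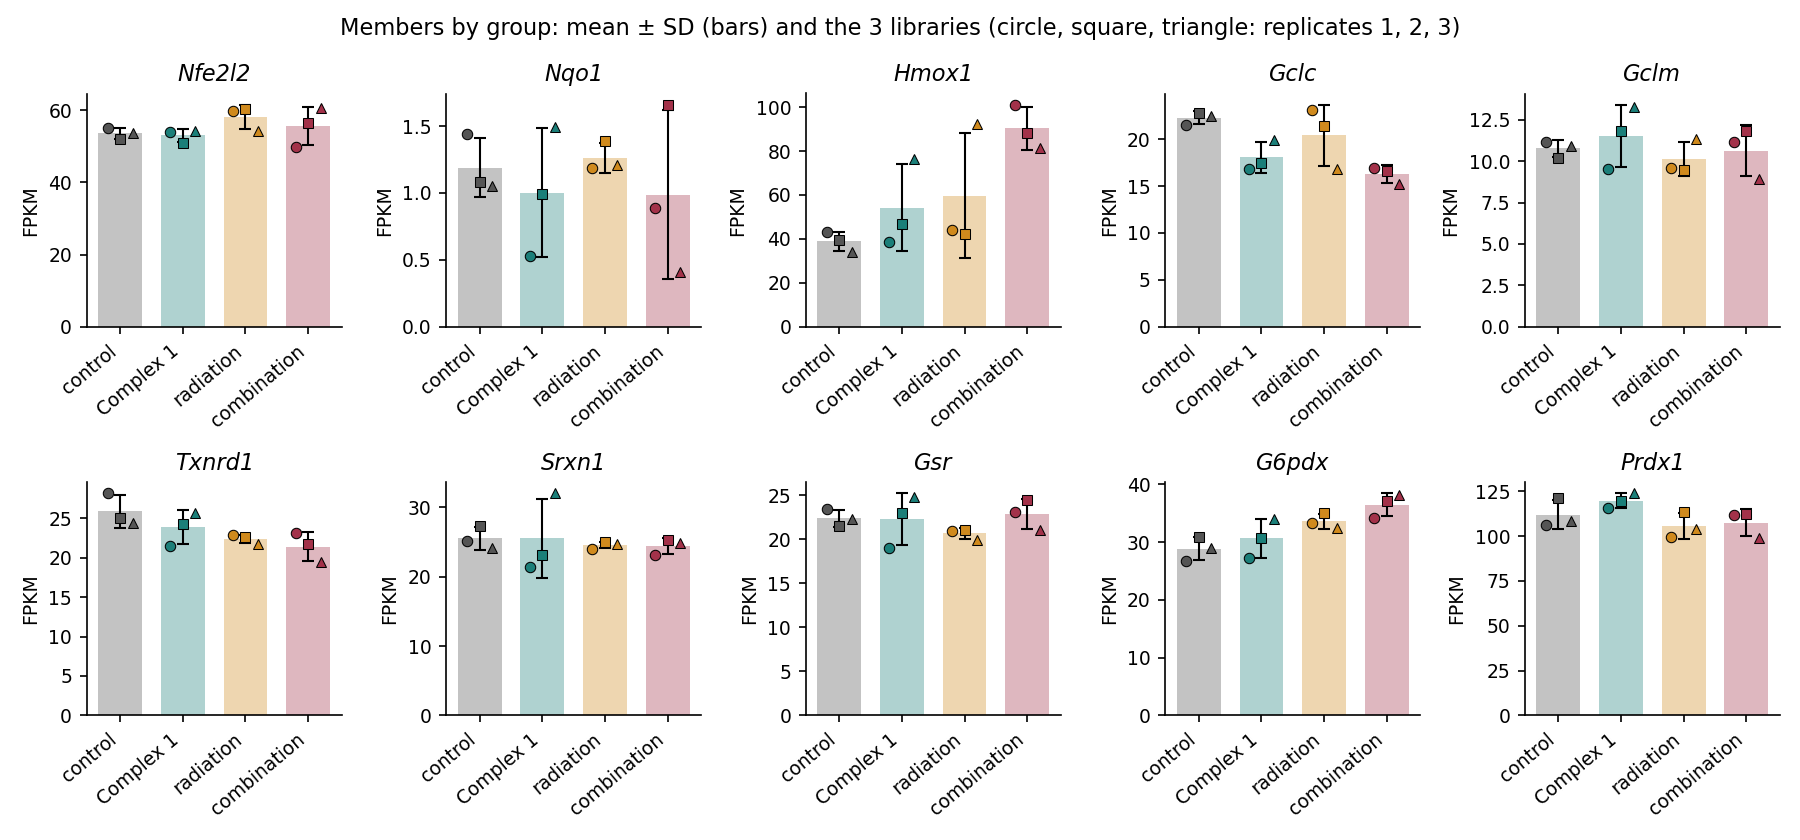
Level of each of the 10 genes in FPKM (vertical axes, each starting at 0) in the 4 groups; points are the 3 libraries of a group and bars the mean with SD. The 3 combination libraries lie above the 3 control libraries for Hmox1 (81.6 to 101 against 34.3 to 43.1 FPKM) and below them for Gclc (15.2 to 17.0 against 21.5 to 22.8 FPKM).

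Levels of the 10 genes spanned about the whole range of tested genes. Prdx1 was the most abundant, above 97.4% of tested genes by mean FPKM over all libraries, followed by Hmox1 (94.9%), Nfe2l2 (94.2%) and G6pdx (88.3%). Srxn1, Txnrd1, Gsr and Gclc lay above 78.8% to 84.2% of tested genes, and Gclm above 62.8%. Nqo1, a gene widely used as a readout of NRF2, was close to the lower limit of testing, above 7.47% of tested genes.

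Nfe2l2 (ENSMUSG00000015839, mm39 chromosome 2, 75505857 to 75534985) encodes NRF2 itself, whose activity is set largely by protein stability, a layer that RNA counts do not show. Its level was 54.9, 52.1 and 53.6 FPKM in control replicates 1 to 3, 53.8, 50.9 and 54.2 FPKM with Complex 1, 59.8, 60.3 and 54.2 FPKM with radiation, and 49.9, 56.3 and 60.5 FPKM with the combination. All 4 groups overlapped. Nfe2l2 did not pass in any of the 8 comparisons, and its log2 fold change in the combination against control was 0.01 with a 95% interval of -0.15 to 0.17. In that comparison 0 of its 10 tested regulators passed. Keap1, the adaptor that targets NRF2 for degradation, had a log2 fold change of 0.19 (adjusted p = 0.26) and Bach1, the competing repressor, 0.06 (adjusted p = 0.56).

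Hmox1 (ENSMUSG00000005413, chromosome 8, 75820249 to 75827217), heme oxygenase 1, breaks heme down to biliverdin, iron and carbon monoxide. Its level was 43.1, 39.3 and 34.3 FPKM in control replicates 1 to 3, and 101, 88.1 and 81.6 FPKM in the combination. With Complex 1 it was 38.8, 47.0 and 76.5 FPKM and with radiation 44.0, 42.5 and 92.4 FPKM. The combination libraries thus lay above every control library, while each single treatment had 2 libraries near the controls and 1 library, replicate 3 in both groups, far above them.

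The group means were 38.9 ± 4.41 FPKM in control, 54.1 ± 19.8 with Complex 1, 59.6 ± 28.4 with radiation and 90.3 ± 9.94 in the combination (SD, n = 3 each). In the combination Hmox1 rose 2.25-fold over control, a log2 fold change of 1.17 ± 0.28 (SE; edgeR, adjusted p = 0.011), and leaving out any 1 library kept it between 1.07 and 1.25 among the alternatives tried. The single treatments did not pass: the log2 fold change was 0.59 (95% interval -0.02 to 1.20) for radiation and 0.45 (-0.17 to 1.06) for Complex 1. Without replicate 3 the radiation value was 0.12 and the Complex 1 value 0.11.

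Macrophages, which take up red cells and express Hmox1 at a high level, were followed with 10 markers. Their summed level was 514 to 559 FPKM in control, 665 to 741 with Complex 1, 861 to 977 with radiation and 926 to 977 in the combination, and 6 of the 10 rose with radiation and 7 of the 10 in the combination. Divided by this sum, Hmox1 was 0.0667 to 0.0771 in control, 0.0581, 0.0707 and 0.103 with Complex 1, 0.0483, 0.0493 and 0.0946 with radiation, and 0.0882 to 0.106 in the combination. Complex 1 replicate 3 and radiation replicate 3 lay in the combination's range. Each of them also had the highest marker sum of its group, 740.7 FPKM with Complex 1 and 976.5 FPKM with radiation. Radiation replicates 1 and 2 had a high marker sum with Hmox1 at the control level, and the combination libraries lay above control also in this ratio. C1qa, C1qb and C1qc made up most of the sum, and Csf1r, Mrc1 and Cd163 overlapped control in the combination. What the ratio means for Hmox1 RNA per macrophage was not tested.

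Neutrophil markers moved with the combination too. The 8 markers summed to 11.6 to 20.3 FPKM in control, 10.5 to 35.5 with radiation, 90.4 to 200 with Complex 1 and 249.4 to 415 in the combination, and all 7 tested markers rose in the combination against control. Complex 1 replicate 3, which had the highest Hmox1 of its group, had the lowest neutrophil sum of its group. S100a9, at 62.3 FPKM, made up most of that sum. The single markers were split in this library: S100a8, S100a9, Retnlg and Mmp8 were the lowest of the group. Csf3r (8.33 FPKM) and Cxcr2 (1.34 FPKM) were the highest. Radiation replicate 3, with the highest Hmox1 of the radiation group, had that group's highest neutrophil sum (35.5 FPKM against 23.1 and 10.5). Hemoglobin and other erythroid markers summed to 6.05 to 22.0 FPKM in control and 5.18 to 10.3 in the combination. Their sum was 7.83 to 25.8 FPKM with Complex 1 and 9.57 to 32.4 FPKM with radiation. The part of these cell types in the Hmox1 result was not tested, and in bulk tissue a change in the share of cells and a change of RNA per cell cannot be told apart.

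**Figure D2:**
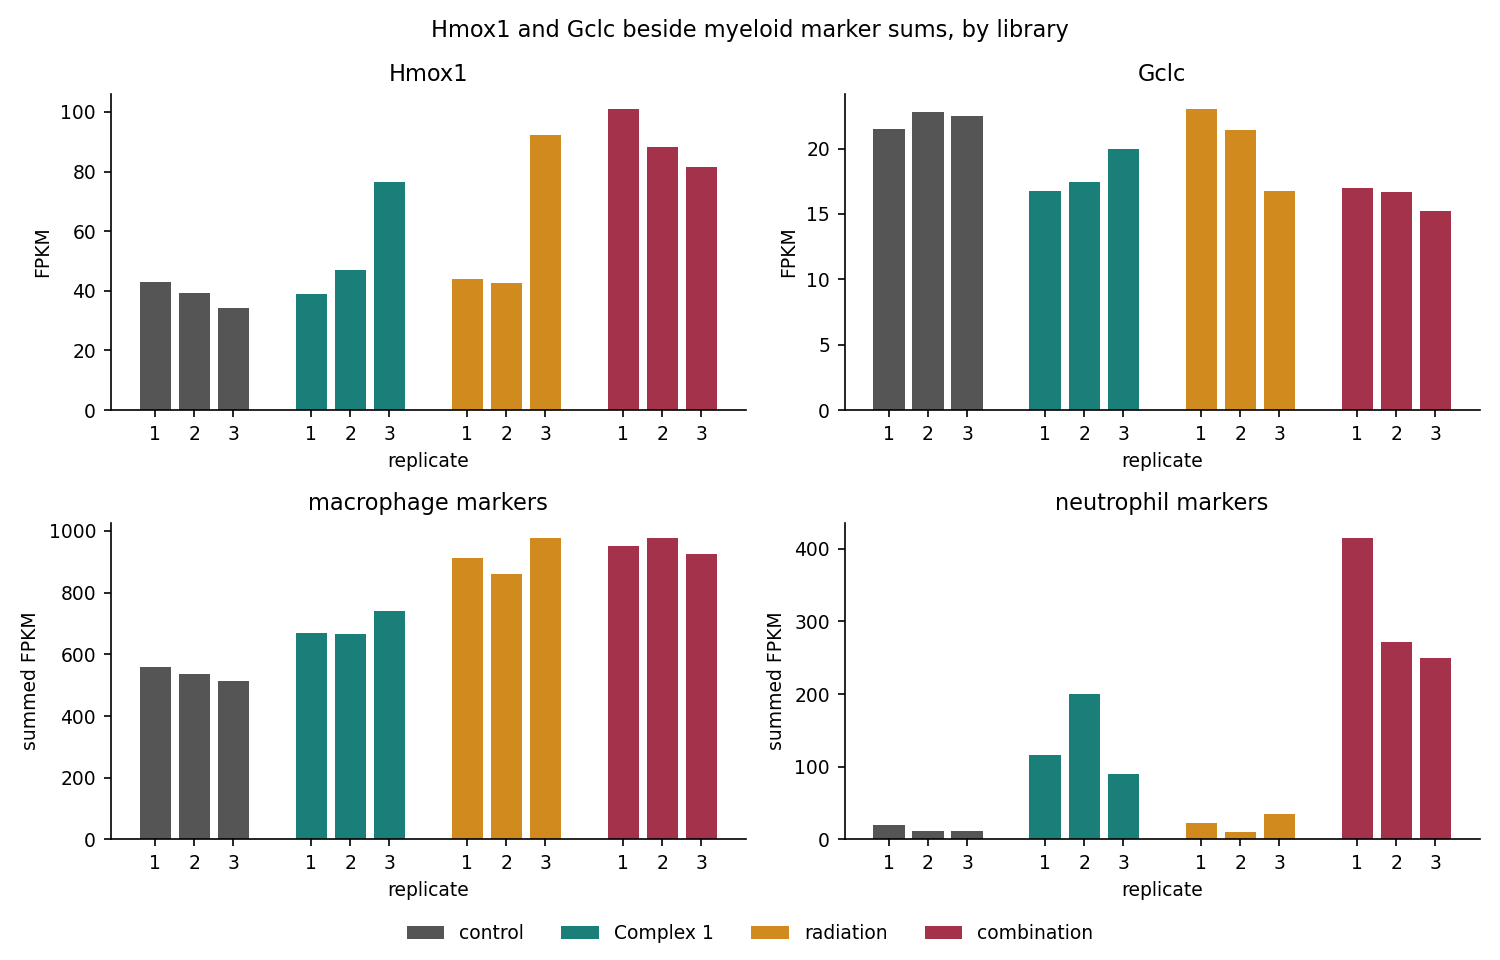
FPKM of Hmox1 and Gclc (upper panels) and summed FPKM of 10 macrophage and 8 neutrophil markers (lower panels), 1 bar per library. Radiation replicate 3 has Hmox1 at 92.4 FPKM and Gclc at 16.8 FPKM, like the combination libraries, with a neutrophil sum of 35.5 FPKM against 249.4 to 415 in the combination.

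Gclc (ENSMUSG00000032350, chromosome 9, 77661817 to 77701767) encodes the catalytic subunit of glutamate-cysteine ligase, the rate-limiting enzyme of glutathione synthesis. Its level was 21.5, 22.8 and 22.5 FPKM in control replicates 1 to 3, 16.8, 17.4 and 19.95 FPKM with Complex 1, 23.1, 21.4 and 16.8 FPKM with radiation, and 17.0, 16.7 and 15.2 FPKM in the combination. Every library that received Complex 1, alone or with radiation, lay below every control library, whereas radiation alone overlapped the controls and only its replicate 3 was low.

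The group means were 22.3 ± 0.675 FPKM in control, 18.05 ± 1.67 with Complex 1, 20.4 ± 3.26 with radiation and 16.3 ± 0.934 in the combination (SD, n = 3 each). Gclc fell in the combination to 0.707 of control, a log2 fold change of -0.50 ± 0.10 (SE; edgeR, adjusted p = 0.0048), and it passed under all 14 alternatives. Complex 1 alone gave -0.33 (95% interval -0.56 to -0.10) and did not pass, with an adjusted p of 0.20.

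The other subunit and the supply of cysteine were not lower in step with Gclc. Gclm (ENSMUSG00000028124, chromosome 3, 122039206 to 122064381), the modifier subunit that raises the catalytic efficiency of the ligase, ranged from 8.92 to 13.3 FPKM over the 12 libraries and the groups overlapped. Its log2 fold change in the combination was -0.07 (95% interval -0.34 to 0.20). Slc7a11, the cystine importer that feeds the pathway, had a log2 fold change of 0.08 in the combination (adjusted p = 0.88) and passed in no comparison. Whether Gclc and Gclm responded differently was not tested.

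Txnrd1 (ENSMUSG00000020250, chromosome 10, 82669785 to 82733546), cytosolic thioredoxin reductase, keeps thioredoxin reduced with electrons from NADPH. Its level was 28.2, 25.0 and 24.4 FPKM in control replicates 1 to 3, 21.5, 24.3 and 25.7 FPKM with Complex 1, 22.8, 22.6 and 21.8 FPKM with radiation, and 23.1, 21.7 and 19.4 FPKM in the combination. Both irradiated groups lay below every control library, and the Complex 1 libraries overlapped the controls. In the combination Txnrd1 fell by 0.32 ± 0.085 on the log2 scale (SE; edgeR, adjusted p = 0.017). Without control replicate 1 the value was -0.25 (adjusted p = 0.074), and without combination replicate 3 it was also -0.25 (adjusted p = 0.076).

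Other marker groups were lower in the combination along with Gclc and Txnrd1. The 8 proliferation markers summed to 272 to 308 FPKM in control, 291 to 314 with Complex 1, 221 to 261 with radiation and 209 to 229 in the combination; 7 of the 8 fell in the combination, 5 with radiation and 0 with Complex 1. The 8 epithelial markers of the tumour line summed to 123 to 154 FPKM in control and 88.7 to 108 in the combination. With Complex 1 the sum was 73.1 to 152 FPKM and with radiation 86.0 to 140 FPKM. Nearly all of it was Krt20, and of the 2 that were tested Krt18 fell in the combination. The part of these cells in the Gclc and Txnrd1 results was not tested.

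The other thiol and peroxide enzymes did not pass against control. Gsr (ENSMUSG00000031584), glutathione reductase, had 23.4, 21.5 and 22.3 FPKM in control, 21.0, 21.1 and 19.97 FPKM with radiation and 23.1, 24.4 and 21.0 FPKM in the combination. It was lower than control in every irradiated-only library, yet its log2 fold change there of -0.14 did not pass (95% interval -0.34 to 0.05), and in the combination it was -0.02, or 0.03 with libraries scaled by their totals alone. Srxn1 (ENSMUSG00000032802), sulfiredoxin, which repairs overoxidised peroxiredoxins, ranged from 21.5 to 32.1 FPKM over the 12 libraries, and the extremes were both Complex 1 libraries, replicates 1 and 3. Prdx1 (ENSMUSG00000028691), an abundant peroxidase that uses thioredoxin, ranged from 99.0 to 124 FPKM, and the 3 Complex 1 libraries (116 to 124 FPKM) lay above the 3 combination libraries (99.0 to 112 FPKM).

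G6pdx (ENSMUSG00000031400, chromosome X, 73453089 to 73472800), glucose-6-phosphate dehydrogenase, is the first enzyme of the pentose phosphate pathway and supplies the NADPH that both reductases use. Its level was 26.8, 30.9 and 29.1 FPKM in control replicates 1 to 3, 27.2, 30.7 and 34.0 FPKM with Complex 1, 33.3, 35.0 and 32.5 FPKM with radiation, and 34.2, 37.1 and 38.1 FPKM in the combination. Both irradiated groups lay above every control library, and the combination also lay above every Complex 1 library. In the combination G6pdx rose by 0.29 ± 0.083 on the log2 scale (SE; edgeR, adjusted p = 0.024), which is 1.22-fold. The call ended without control replicate 1 (0.24, adjusted p = 0.098), control replicate 3 (0.29, adjusted p = 0.054), combination replicate 2 (0.28, adjusted p = 0.070) or combination replicate 3 (0.26, adjusted p = 0.080). Without control replicate 2, the library with low Xist, it was 0.34 (adjusted p = 0.027). Of the 31-base sequences of G6pdx, 23.6% also occur at another locus, the retrogene G6pd2 among them, so part of its reads may have been dropped or split in counting; for Prdx1 this share is 15.4%.

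Nqo1 (ENSMUSG00000003849), NAD(P)H quinone dehydrogenase 1, was barely detected. Its level was 1.44, 1.08 and 1.05 FPKM in control, 0.53, 0.99 and 1.49 FPKM with Complex 1, 1.19, 1.39 and 1.21 FPKM with radiation, and 0.89, 1.66 and 0.41 FPKM in the combination, from 12 to 43 counts per library. The groups overlapped throughout. The interval of its log2 fold change in the combination ran from -1.26 to 0.59, which holds a fall as large as the rise of Hmox1 but no rise of that size.

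Each treatment alone left the 10 genes below the threshold. Against control, radiation called 0 of 10 genes where 13.2% of all tested genes passed; Txnrd1 (-0.24, adjusted p = 0.086) and G6pdx (0.19, adjusted p = 0.15) had an unadjusted p under 0.05, as 28.4% of all tested genes did, and DESeq2 called 0. Txnrd1 and Gsr were lower and G6pdx higher without overlap, beside 12% and 17.9% of tested genes in those directions. Complex 1 called 0 of 10 where 0.812% passed, with 1, Gclc, at an unadjusted p under 0.05 (12.5% of all tested genes) and 0 called by DESeq2. Gclc was the 1 gene without overlap, beside 4.71% of tested genes that were lower in that way.

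The combination was also set against each single treatment. Against radiation, 0 of 10 genes passed where 0.651% of all tested genes did; 1, Gclc, had an unadjusted p under 0.05 (log2 fold change -0.35, adjusted p = 0.24), as did 10.3% of all tested genes, and DESeq2 called 0. Without radiation replicate 3, the library in which Gclc was already low, that value was -0.47 (adjusted p = 0.040). Against Complex 1, 0 of 10 passed where 9.98% of tested genes did, with DESeq2 again at 0. Hmox1 (0.72, adjusted p = 0.13), G6pdx (0.23, adjusted p = 0.093) and Prdx1 (-0.18, adjusted p = 0.17) had an unadjusted p under 0.05 there, as 25.6% of tested genes did, and did not overlap, beside 16.5% of tested genes higher and 14% lower without overlap. Without Complex 1 replicate 3 the values became 1.06 for Hmox1 (adjusted p = 0.021) and 0.32 for G6pdx (adjusted p = 0.019). These comparisons share libraries with those against control.

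**Figure D3:**
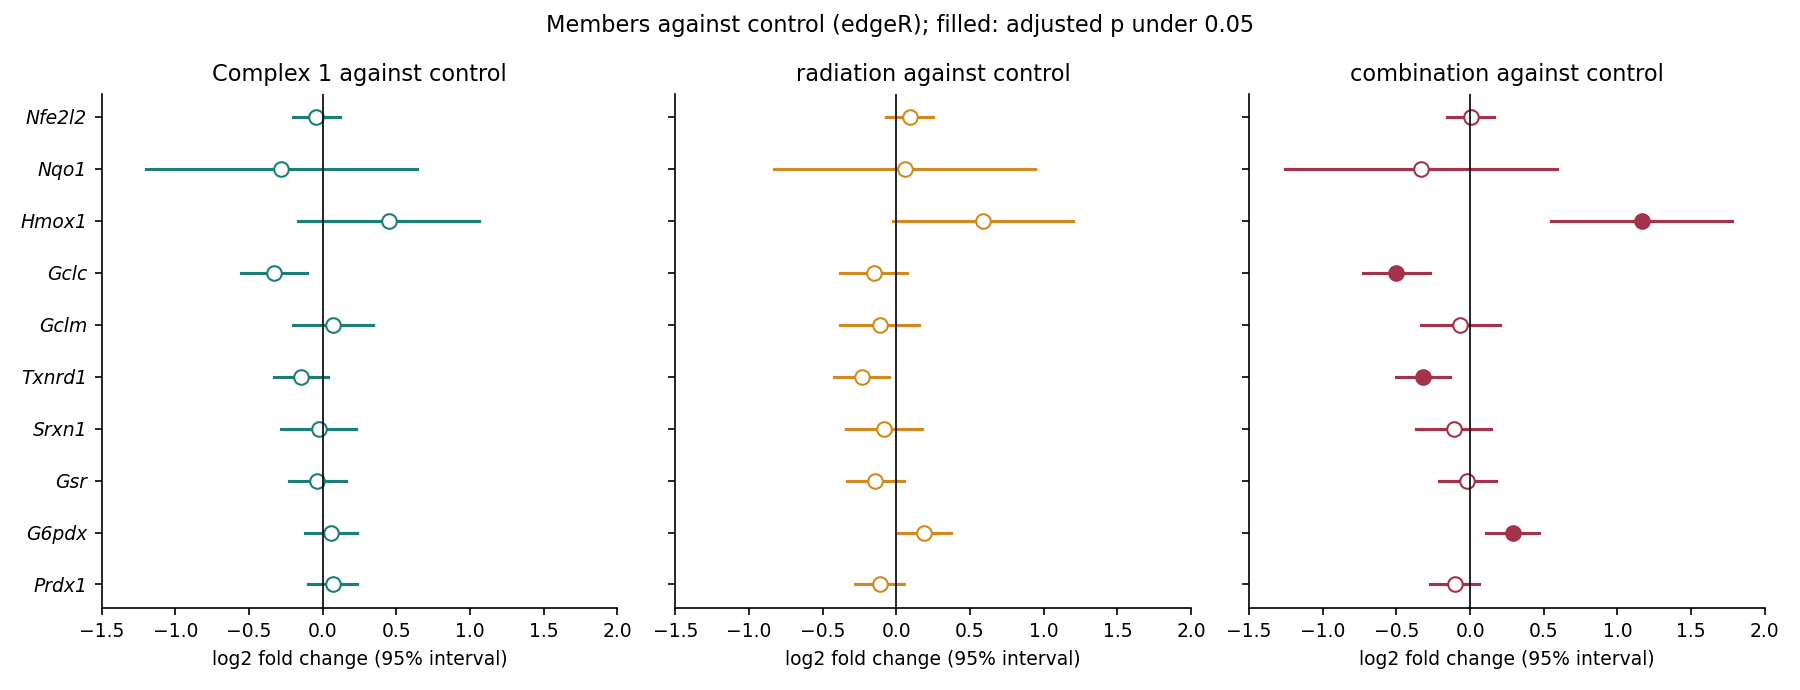
Log2 fold change of each of the 10 genes with its 95% interval (edgeR) with Complex 1, radiation and the combination, each against control; filled points passed at an adjusted p under 0.05. In the combination against control Hmox1 stands at 1.17 and Gclc at -0.50, and the intervals of Nfe2l2, Nqo1, Gclm, Srxn1, Gsr and Prdx1 include 0.

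With both levels of the other treatment pooled, 6 libraries against 6, each treatment had calls. Radiation raised Hmox1 (log2 fold change 0.65 ± 0.20, adjusted p = 0.028) and G6pdx (0.21 ± 0.058, adjusted p = 0.018) and lowered Txnrd1 (-0.21 ± 0.061, adjusted p = 0.023), 3 of 10 genes where 26.5% of all tested genes passed, 13.3% higher and 13.2% lower. Complex 1 lowered Gclc (-0.34 ± 0.074, adjusted p = 0.030), 1 of 10 where 2.77% passed, 2.26% higher and 0.512% lower. Both genes also had values in the other effect that did not pass: Hmox1 in the Complex 1 effect was 0.51 (95% interval 0.08 to 0.94, unadjusted p = 0.023, adjusted p = 0.20), and Gclc in the radiation effect was -0.16 (-0.32 to -0.001, unadjusted p = 0.048, adjusted p = 0.13). Whether the 2 effects on a gene differ was not tested. The Hmox1 call ended in 7 of 19 alternatives, and its value was 0.42 (adjusted p = 0.057) without radiation replicate 3. The Txnrd1 call ended without control replicate 1 (-0.17, adjusted p = 0.058) and without combination replicate 3 (-0.17, adjusted p = 0.060), and the G6pdx call did not end in any. The Gclc call ended in 8 of 19, each of them a library left out, with values of -0.36 to -0.30.

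The interaction, which asks whether the combination differed from the sum of the single treatments on the log2 scale, called 0 of the 10 genes, 0 by DESeq2 and 0 at an unadjusted p under 0.05. Of all tested genes 0% passed in edgeR, 601 (4.4%) had an unadjusted p under 0.05, and DESeq2 called 6. For Hmox1 the estimate was 0.13 with a 95% interval of -0.73 to 0.99, and for Gclc -0.02 with -0.34 to 0.30. The intervals are wide enough that neither a departure from additivity nor its absence was shown.

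The genes also differed in how much of their variation lay between groups. Of the variance of log2 CPM (counts per mega count) over the 12 libraries, 70.7% lay between groups for Gclc, 63.3% for Txnrd1, 63.1% for G6pdx, 59.6% for Hmox1 and 51.0% for Prdx1, against 8.25% for Srxn1 and 17.5% for Gclm. With few libraries per group, some share lies between groups without any effect. The share over all tested genes was not computed, and Prdx1 passed in no comparison. Within the Complex 1 group the libraries spread in 1 direction over most genes: replicate 1 lay below the control mean in 9 of the 10 genes, and replicate 3 above it in 8. Its mean over the 10 genes was -0.26 in replicate 1, -0.07 in replicate 2 and 0.22 in replicate 3, as log2 differences from the control mean. The ratio of Hmox1 to Gclc in FPKM was 1.53 to 2.0 in control, 2.31, 2.70 and 3.83 with Complex 1, 1.91, 1.98 and 5.51 with radiation, and 5.29 to 5.96 in the combination.

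**Figure D4:**
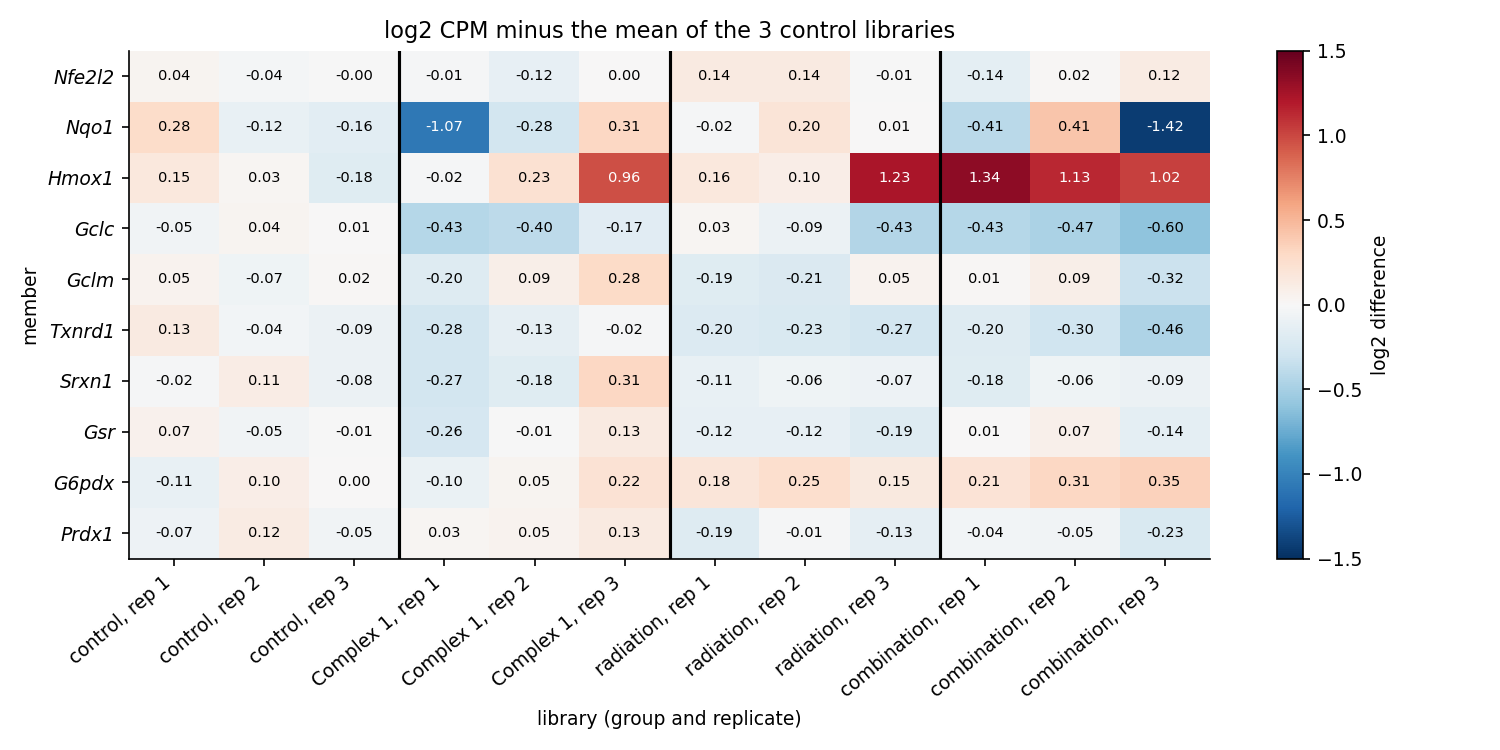
Log2 difference of each gene (rows) in each library (columns) from the control mean, as a colour scale. Hmox1 is high in all 3 combination libraries, in radiation replicate 3 (1.23) and in Complex 1 replicate 3 (0.96), and Gclc is low in every library given Complex 1 and in radiation replicate 3 (-0.43).

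The genes whose log2 CPM ran most like each of these over the 12 libraries are given as a description. All libraries share the 4 groups, so genes that differ between groups resemble each other on that account. Each gene given was also picked as the highest among a large number of tested genes, so high values can arise without any link. Closest to Hmox1 were Limd2 (Pearson r = 0.949), Tnfrsf11a (0.934) and Calhm6 (0.928), and closest to Gclc were Klf4 (0.949), Tmem200a (0.901) and Slc36a4 (0.896). Closest to G6pdx were Il11ra1 (0.975), Vps52 (0.959) and Lynx1 (0.946), and closest to Txnrd1 were Esd (0.948), Rpn2 (0.928) and Txndc11 (0.900). Gclm ran most like Txn1, the thioredoxin gene (0.870), and Prdx1 most like Gmnn (0.940) and Cks2 (0.925). For Nfe2l2 the closest gene was Arid4a (0.918), for Gsr Gpc1 (0.926), for Srxn1 Mcub (0.893) and for Nqo1 Rdh14 (0.875).

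Around these genes, a list of 87 further genes of the NRF2 pathway was followed, of which 74 were tested. In the combination against control 12 of the 74 rose and 2 fell, beside 11.9% and 10% of all tested genes, and the list's median log2 fold change was 0.06. With the trend on gene length removed, 12 rose and 4 fell. With radiation 7 rose and 2 fell, beside 7.39% (1010 genes) and 5.85% (800) of all tested genes. Scaled by library totals alone, 8 rose and 1 fell, beside 1163 and 576 of all tested genes. With Complex 1 alone edgeR called 0, 8 had an unadjusted p under 0.05, as 12.5% of all tested genes did, and DESeq2 called 2. In the radiation effect over 6 libraries against 6, 15 rose and 6 fell, beside 13.3% and 13.2% of all tested genes.

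The sub-lists are described by their counts in the combination against control, to be read beside the 11.9% higher and 10% lower of all tested genes, and nothing is called particular to a sub-list. Of 20 tested conjugation and carbonyl enzymes 3 rose and 0 fell, close to the share over all tested genes. Mgst1, a membrane glutathione transferase, stood at 1.68, 1.79 and 1.80 FPKM in control replicates 1 to 3 and at 5.27, 4.78 and 4.90 FPKM in the combination, a log2 fold change of 1.45 (adjusted p = 0.0018). Ephx1, microsomal epoxide hydrolase, rose with radiation (1.03, adjusted p = 5.4e-05) and in the combination (0.92, adjusted p = 7.1e-05), while its Complex 1 libraries at 60.6 to 67.5 FPKM overlapped the controls at 53.8 to 64.5 FPKM. Cbr3, a carbonyl reductase, rose in the combination from low levels (1.19, adjusted p = 0.020), with 9 to 37 counts per library.

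In glutathione synthesis and turnover, 1 of 7 tested genes fell in the combination, near the share of all tested genes, and 0 rose. The 1 that fell was Chac1, which cleaves glutathione and is also a target of the integrated stress response. Its level was 15.3, 15.4 and 11.3 FPKM in control replicates 1 to 3 and 8.37, 7.89 and 7.0 FPKM in the combination (-0.90, adjusted p = 0.014). Radiation gave a like value (-0.89, adjusted p = 0.024), and the combination was also lower than Complex 1 alone (-1.04, adjusted p = 0.014).

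Thiol and peroxide enzymes rose in 5 of 23 tested genes in the combination and fell in 1. Glrx, glutaredoxin, which removes glutathione from proteins, rose the most: 8.04, 7.60 and 7.81 FPKM in control replicates 1 to 3 became 21.3, 15.9 and 14.8 FPKM in the combination (1.10, adjusted p = 0.00024). Over 6 libraries against 6, Glrx rose by 0.53 with radiation (adjusted p = 0.0018) and by 0.57 with Complex 1 (adjusted p = 0.0068). Sod2, the mitochondrial superoxide dismutase and a known NF-kappaB target, was the 1 gene of the list higher in the combination than with radiation (0.57, adjusted p = 0.037), where 0.615% of all tested genes were higher. That call ended with only the groups compared (adjusted p = 0.079) and without any 1 of radiation replicates 1, 2 and 3 or combination replicates 1 and 2 (0.42 to 0.64). Of the 31-base sequences of Sod2, 26.7% also occur at another locus. Sod1, the cytosolic superoxide dismutase, fell in the combination (-0.28, adjusted p = 0.019).

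Heme and iron genes rose in 3 of 8 tested genes in the combination and fell in 0, alongside Hmox1. They were Fth1, the ferritin heavy chain that stores iron (0.50, adjusted p = 0.015), Blvrb, a biliverdin reductase (0.47, adjusted p = 0.014), and Hmox2, the constitutive heme oxygenase (0.28, adjusted p = 0.024), of whose 31-base sequences 46% also occur at another locus. Fth1 levels were 614, 646 and 547 FPKM in control replicates 1 to 3 and 907, 811 and 931 FPKM in the combination. Among the 6 tested NADPH genes 1 rose, Pgd, which follows G6pdx in the pentose phosphate pathway (0.29, adjusted p = 0.038), and 0 fell.

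Among the genes named from the list, Mgst1, Ephx1, Glrx and Sod2 passed in the combination against control under all 14 alternatives. For Sod2 the log2 fold change against control was 0.48 to 0.70 over them. The others that had passed lost that call when certain libraries were left out, 2 for Cbr3, Chac1, Fth1 and Blvrb, 4 for Sod1 and Hmox2 and 6 for Pgd. The lost values stayed within 0.94 to 1.07 for Cbr3 (control replicate 1, combination replicate 2), -0.83 to -0.82 for Chac1 (control replicate 2, combination replicate 3), 0.44 to 0.47 for Fth1 (replicate 3 of either group) and 0.40 to 0.42 for Blvrb (control replicate 1, combination replicate 2). With radiation against control, Ephx1 and Gsta4, another glutathione transferase gene, passed under all 14 alternatives. For Gsta4 the log2 fold change was 0.56 to 0.74 over them. In the same comparison Chac1 passed under 10, Glrx under 9, Mgst1 under 8 and Nfe2l1 under 7.

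Of 10 tested regulators of NRF2, 0 passed in the combination. An unadjusted p under 0.05 was seen for 4 of them there, as for 4721 of the 13668 tested genes. With radiation 1 fell, Nfe2l1, a related factor (-0.33, adjusted p = 0.038), beside 5.85% of all tested genes that were lower. In the radiation effect over 6 libraries against 6, 2 fell, Cul3 and Nfe2l1, beside 13.2% lower. Those calls held in 8 of 19 alternatives for Cul3 and in 12 of 19 for Nfe2l1. Several genes of the list are also expressed strongly by macrophages or neutrophils, whose markers were higher in the same libraries, and the part of those cells in the list's calls was not tested.

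**Figure D5:**
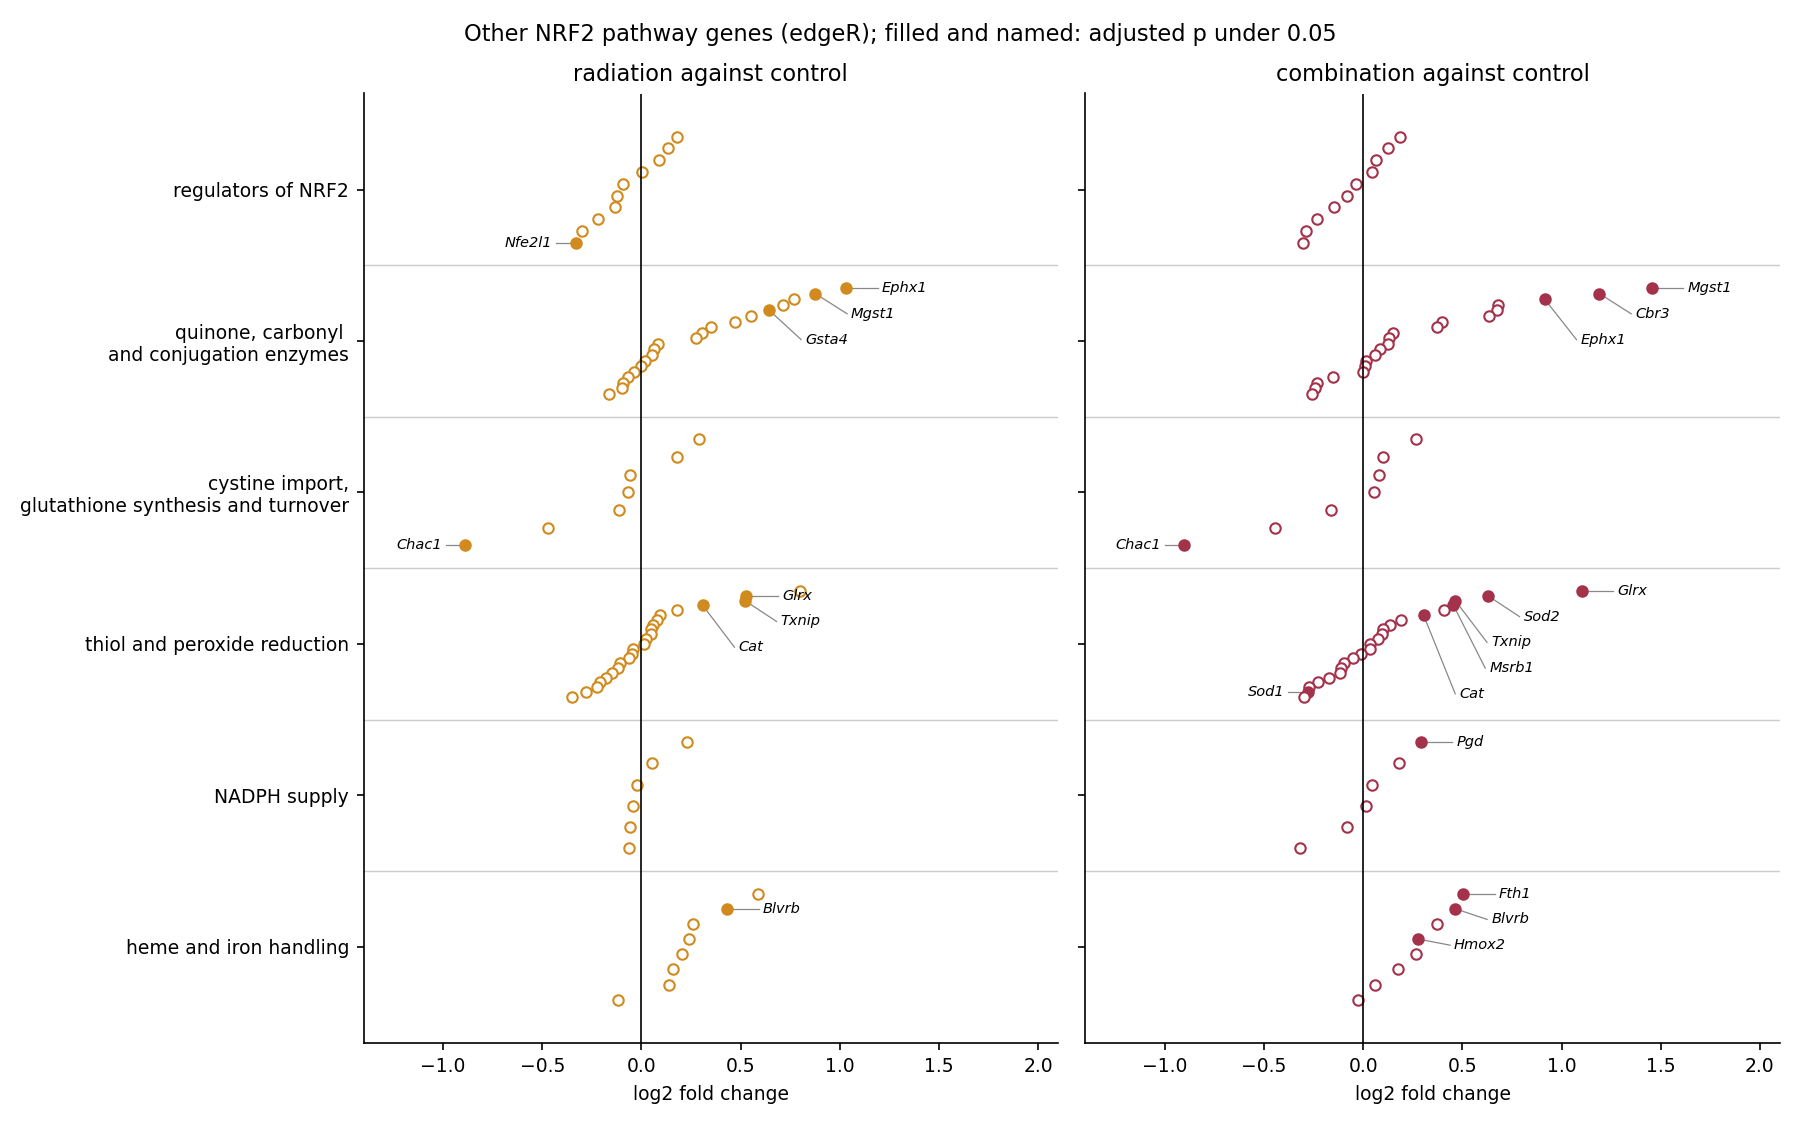
Log2 fold change of the 74 tested genes of the wider pathway list (points), by sub-list, with radiation (left) and the combination (right) against control; filled and named points passed at an adjusted p under 0.05. In the combination Mgst1 (1.45), Cbr3 (1.19), Glrx (1.10) and Ephx1 (0.92) lie farthest to the right and Chac1 (-0.90) farthest to the left.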

How the data were processed

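RNA was sequenced from 12 CT26 tumour libraries, 3 per group. The authors deposited a raw count per gene and library, and FPKM computed from these counts, the exonic length and the library total, in 1 table (recomputed here within 0.005 FPKM). The submitters' processing notes name build mm39 and the tools STAR 2.5.3a, HTSeq 2.0.1 and DESeq2; the role of each and the strand setting are not stated, so overlapping genes on opposite strands cannot be told apart. Entries without a symbol held 0.0579% to 0.0706% of a library's counts.

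Counts of the 13668 genes that 3 or more of the 12 libraries had at 1 FPKM or above were scaled by TMM and fitted with edgeR 4.0.16 (quasi-likelihood, R 4.3.3), with a mean per group and a shared spread. The contrasts (5 between groups, the effect of each treatment over both levels of the other, and the interaction) were tested, each Benjamini-Hochberg adjusted over all tested genes, with a threshold of 0.05. Alternatives were median-ratio scaling, library totals, removal of a trend on gene length, DESeq2 1.42.0, no FPKM filter, a fit of only the groups compared, robust estimation, a replicate block and, in turn, each library left out. The code was tested on simulated counts. The labels do not state that replicate numbers pair libraries across groups, and the numbers were not taken as pairs. Same-numbered libraries deviated together in 6 of 18 pairs (correlation over 0.1, at most 0.242). Other-numbered pairs reached 0.262, so the count alone does not decide whether the numbers are pairs.

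All 10 genes are named. Of the wider pathway list, at most 4 genes per direction and comparison with the largest change among those that passed were to be named, with Keap1, Bach1 and Slc7a11; Hmox2, Fth1, Blvrb and Pgd were added after their values were seen. The genes, lists and markers were chosen with earlier results of these data known. Shared sequence was computed on GENCODE M21 transcripts and promoters are RefSeq's (GRCm38.p6); gene coordinates are the deposited table's (mm39).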

Additional observations from a re-analysis of the deposited data

How the results depend on the processing

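The rise of Hmox1 and the fall of Gclc in the combination against control passed under all 14 alternatives; Txnrd1 passed under 12 and G6pdx under 10, each lost only by leaving out a library. Of 1270 values of single genes under alternatives, 1153 kept direction and side of the threshold, 23 lost the call, 14 gained it and 80 changed sign. Depth limits mainly Nqo1, with 12 to 43 counts per library. Without the FPKM filter, 31727 genes were fitted, edgeR's prior degrees of freedom were infinite instead of 5.07, and spreads were drawn fully to the trend. It then called 2 of the 10 genes with radiation, 2 with Complex 1, 2 in the combination against radiation, 1 against Complex 1 and 2 in the Complex 1 effect. With the replicate block the combination against control called the same number of the 10 genes, 4, and 17 of the pathway list against 14; in no comparison did the block move a count of calls by over 1.5 times.

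The pathway list had 19 calls with radiation without the filter (9 with it), 7 with Complex 1 (0), 26 in the combination against control (14), 5 against radiation (1), 16 against Complex 1 (7), 8 in the Complex 1 effect (2) and 2 in the interaction (0). DESeq2 called 2 with Complex 1, 2 in the combination against radiation and 5 in the Complex 1 effect, and fitting only the groups compared gave 0 against radiation and 4 against Complex 1. Over all tested genes, Complex 1 against control had 111 calls, 326 in DESeq2, 803 without the filter and 45 with only the groups compared. The combination against radiation had 89, 185 in DESeq2 and 529 without the filter; against Complex 1 it had 1364 and 2285 without the filter. The Complex 1 effect had 379, 667 in DESeq2 and 1262 without the filter, and the interaction 0, 6 and 163. Apart from the filter, the cause of these changes was not tested.

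Leaving out each library in turn gave 2 to 4 of the 10 genes in the combination against control, 0 to 1 against radiation, 0 to 2 against Complex 1 and 0 to 2 in the Complex 1 effect. For the pathway list it gave 2 to 7 with radiation, 0 to 1 with Complex 1, 7 to 14 in the combination against control, 0 to 1 against radiation, 1 to 13 against Complex 1, 12 to 28 in the radiation effect and 1 to 3 in the Complex 1 effect. Over all tested genes it gave 865 to 1678 with radiation, 4 to 236 with Complex 1, 25 to 72 in the combination against radiation, 582 to 1884 against Complex 1 and 200 to 608 in the Complex 1 effect.

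Signs changed only for estimates that had not passed. By setting, these log2 values were 0.001 for Srxn1 with Complex 1 and 0.03 for Gsr in the combination against control (library totals), -0.02 for Nfe2l2 in the combination against control (no filter), -0.002 for Prdx1 in the combination against radiation (length trend removed), and -0.013 and -0.025 for Nqo1 in the radiation effect (no filter, replicate block). The Srxn1 interaction was 0.005 with median-ratio scaling and in DESeq2, 0.014 with the length trend removed, 0.012 without the filter and 0.007 with the block.

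Where leaving out a library changed a sign, the range of log2 values over the libraries left out is given by gene. With radiation against control it was -0.025 to 0.216 for Nqo1. With Complex 1 against control it was -0.694 to 0.035 for Nqo1, -0.049 to 0.189 for Gclm, -0.229 to 0.084 for Srxn1, -0.129 to 0.063 for Gsr and -0.031 to 0.133 for G6pdx. In the combination against control it was -0.056 to 0.073 for Nfe2l2, -0.936 to 0.057 for Nqo1, -0.148 to 0.051 for Gclm and -0.069 to 0.041 for Gsr. In the combination against radiation it was -0.992 to 0.001 for Nqo1, -0.033 to 0.165 for Gclm, -0.054 to 0.005 for Srxn1 and -0.04 to 0.068 for Prdx1. In the combination against Complex 1 it was -0.008 to 0.12 for Nfe2l2, -0.651 to 0.36 for Nqo1, -0.196 to 0.117 for Srxn1 and -0.083 to 0.109 for Gsr. In the radiation effect it was -0.297 to 0.208 for Nqo1 and -0.139 to 0.017 for Srxn1. In the Complex 1 effect it was -0.001 to 0.119 for Gclm, -0.129 to 0.027 for Srxn1 and -0.002 to 0.094 for Gsr. In the interaction it was -0.098 to 0.03 for Nfe2l2, -0.706 to 0.304 for Nqo1, -0.066 to 0.594 for Hmox1, -0.14 to 0.082 for Gclc, -0.141 to 0.1 for Gclm, -0.008 to 0.135 for Txnrd1, -0.113 to 0.2 for Srxn1, -0.034 to 0.13 for G6pdx and -0.127 to 0.003 for Prdx1.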
